A study of Homo sapiens with 5 samples.

Results

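RNA polymerase II (RNAPII) occupancy at transcription start sites (TSSs) was compared between RPE1 cells lacking both CFAP20 and CCNC (CFAP20/CCNC-dKO) and RPE1 cells lacking CFAP20 alone (CFAP20-KO). The members were all TSSs with a value in both libraries, 9787 of the 9944 listed, covering 9767 genes. RPE1 is a human retinal pigment epithelial line immortalised with telomerase. Every cell line of the series carried an inducible Cas9 (iCas9) and a double knockout of p53 and of puromycin resistance, and all were untreated. The labels used here do not say how many clones stand behind a genotype. The series holds 5 RPB1 ChIP-seq libraries: 1 of CFAP20-KO, 1 of CFAP20/CCNC-dKO and 3 of WT, in which CFAP20 and CCNC are intact. RPB1 is the largest subunit of RNAPII. Both knockout libraries name the same RPB1 antibody, while WT names another. The labels do not settle this difference, since WT lists its RPB1 and spike-in antibodies under 1 and the same catalogue number, and the protocol of every library names that number for RNAPII. WT served to set promoter classes and to show how far replicate libraries of 1 genotype can differ. WT values beside single genes, and the WT replicate range, are given as descriptions only: an antibody difference and a genotype difference from WT cannot be told apart. The labels list 2 sequencing instruments and 2 read lengths without assigning them to libraries.

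CCNC encodes cyclin C, the partner of the kinases CDK8 and CDK19. With MED12 and MED13 they form the kinase module, a part of Mediator that docks reversibly on the core complex, the bridge between enhancer-bound factors and RNAPII at the promoter. While docked, the module blocks the binding of RNAPII to core Mediator, and its kinases phosphorylate transcription factors, among them the SMAD proteins of the TGF-beta pathway. It is known both as a repressor and, at signal-responsive genes such as immediate early genes, as a positive regulator. No TSS of CFAP20, CCNC, CDK8, CDK19, MED12 or MED13 was among the 9787, so the knocked-out genes themselves were not measured.

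Density is given in the deposited spike-in-normalized coverage units. Promoter density is the mean from 200 bp upstream to 500 bp downstream of the TSS, and gene body density is averaged over 2000 to 5000 bp downstream in genes of at least 5000 bp. Promoters above the WT median, 4893 TSSs, are called active. The 2936 TSSs in the top 30% of WT density are called bound. The 2935 TSSs at or below the WT median whose gene has no BrU-seq (nascent RNA) value served as background. Coverage corresponded to 846838 fragments for CFAP20-KO and 1185134 for CFAP20/CCNC-dKO over all windows, and to a median of 14.3 and 16.3 fragments per active promoter. With 1 library per genotype there is no replicate check and no test between them. The intervals given are 95% intervals of the fragment counts and cover counting error only.

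The promoters printed here show the sequence context of genes at both extremes of the promoter ratio and of 1 gene whose body differed. They are the RefSeq promoters (GRCh38.p14, 250 bases before to 50 after the RefSeq start, written 5′ to 3′ on the gene's strand) of genes matched by symbol, with CpG dinucleotides in capitals. NFXL1 (chr4:47914618-47914917, minus strand), DET1 (chr15:88546632-88546931, minus strand) and PRR16 (chr5:120464050-120464349, plus strand) were among the 12 genes with the lowest CFAP20/CCNC-dKO to CFAP20-KO promoter ratio. ZDHHC7 (chr16:85011486-85011785, minus strand) and LSM10 (chr1:36397859-36398158, minus strand) were among the 12 with the highest. TGFBI (chr5:136028738-136029037, plus strand) is the TGF-beta-induced matrix gene described with the gene bodies.
NFXL1: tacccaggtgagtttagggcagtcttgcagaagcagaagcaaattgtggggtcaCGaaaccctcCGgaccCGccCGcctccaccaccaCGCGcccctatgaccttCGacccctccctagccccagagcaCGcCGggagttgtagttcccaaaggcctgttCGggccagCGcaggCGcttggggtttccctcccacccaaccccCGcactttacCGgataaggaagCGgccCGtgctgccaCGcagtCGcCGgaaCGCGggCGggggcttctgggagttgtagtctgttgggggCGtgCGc
DET1: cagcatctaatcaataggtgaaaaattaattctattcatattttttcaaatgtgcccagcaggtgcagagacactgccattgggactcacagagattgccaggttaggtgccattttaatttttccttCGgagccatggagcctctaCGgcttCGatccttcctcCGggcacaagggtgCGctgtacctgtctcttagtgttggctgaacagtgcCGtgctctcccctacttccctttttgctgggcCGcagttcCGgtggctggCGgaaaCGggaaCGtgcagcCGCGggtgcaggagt
PRR16: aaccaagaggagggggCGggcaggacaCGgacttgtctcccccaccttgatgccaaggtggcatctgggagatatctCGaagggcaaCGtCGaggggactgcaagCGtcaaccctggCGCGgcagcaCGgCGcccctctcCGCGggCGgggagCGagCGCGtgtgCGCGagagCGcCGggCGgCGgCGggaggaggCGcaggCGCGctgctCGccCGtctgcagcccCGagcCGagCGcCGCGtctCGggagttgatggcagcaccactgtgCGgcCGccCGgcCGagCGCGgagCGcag
ZDHHC7: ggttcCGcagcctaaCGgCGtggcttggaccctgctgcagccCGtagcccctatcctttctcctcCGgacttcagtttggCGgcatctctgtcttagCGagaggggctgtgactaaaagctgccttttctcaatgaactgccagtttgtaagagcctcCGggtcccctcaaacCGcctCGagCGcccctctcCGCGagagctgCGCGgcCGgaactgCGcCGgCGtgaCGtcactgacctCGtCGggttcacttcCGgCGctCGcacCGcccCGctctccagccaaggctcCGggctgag
LSM10: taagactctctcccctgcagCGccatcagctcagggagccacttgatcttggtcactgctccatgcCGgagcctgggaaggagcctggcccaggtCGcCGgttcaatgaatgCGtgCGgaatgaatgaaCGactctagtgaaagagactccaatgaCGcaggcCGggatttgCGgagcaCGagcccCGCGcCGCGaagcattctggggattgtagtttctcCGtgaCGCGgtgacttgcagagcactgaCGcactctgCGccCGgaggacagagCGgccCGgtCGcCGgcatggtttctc
TGFBI: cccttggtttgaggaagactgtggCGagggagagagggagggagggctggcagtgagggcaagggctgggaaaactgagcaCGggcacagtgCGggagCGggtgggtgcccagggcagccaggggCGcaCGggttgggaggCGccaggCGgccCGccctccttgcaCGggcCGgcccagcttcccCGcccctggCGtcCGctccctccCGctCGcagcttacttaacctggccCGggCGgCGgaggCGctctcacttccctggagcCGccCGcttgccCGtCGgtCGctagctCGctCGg
The promoters with the lowest ratios held 24, 13 and 41 CpG dinucleotides and those with the highest 28 and 25, so the 2 sets overlapped in CpG content. The letters TATAAA, the TATA box searched from 45 to 15 bases before the start on the gene's strand, were in none of the 6 windows. Of the GC box letters GGGCGG, searched on both strands, NFXL1 held 2 copies, PRR16 4, ZDHHC7 1, TGFBI 4 and the other two none. These letters were in 36.8% of all promoter windows. Of 34 genes looked up, 24 had a RefSeq promoter. Their RefSeq starts lay up to 160645 bp from the listed TSS (RUNX1), so the promoters printed are ones whose start lay at most 93 bp from it.

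RNAPII was lower at promoters of the double knockout. Over the 4893 active TSSs the median promoter density was 1.1 for CFAP20-KO and 0.816 for CFAP20/CCNC-dKO, against 1.07 in WT. The median log2 ratio of CFAP20/CCNC-dKO over CFAP20-KO was -0.37 (0.772-fold), and 68.7% of active promoters were lower in the double knockout. Gene bodies differed by less, with a median log2 ratio of -0.05 over 4370 TSSs. At background TSSs mean promoter density was 0.279 and 0.288, and median flank density, 2000 to 4500 bp from the TSS on both sides, was 0.367 in both libraries. The chromatin used was 28 µg for CFAP20-KO and 22 µg for CFAP20/CCNC-dKO, with 1.43 and 1.48 ng of spike-in chromatin per µg. The part of this difference in the result was not tested. In ChIP of bulk cells, fewer occupied alleles and fewer cells with RNAPII at a gene cannot be told apart.

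WT replicates differed from each other by as much or more in 2 of 3 pairs. WT values of replicates 1 to 3 exist within windows around replication origins, which held 1740 of the TSSs, 836 of them bound. Each library was scaled to its median flank density at these TSSs, and the mean background promoter density was subtracted. By this measure CFAP20/CCNC-dKO held 0.660 of the bound promoter signal of CFAP20-KO. WT replicate 2 held 0.628 of that of WT replicate 1, WT replicate 3 held 1.27 times that of replicate 1, and WT replicate 2 held 0.496 of that of replicate 3. Whether the lower promoter signal belongs to the genotype or to the library therefore cannot be told apart with 1 library of each, and the comparisons that follow ask how it was distributed over promoters.

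**Figure D1:**
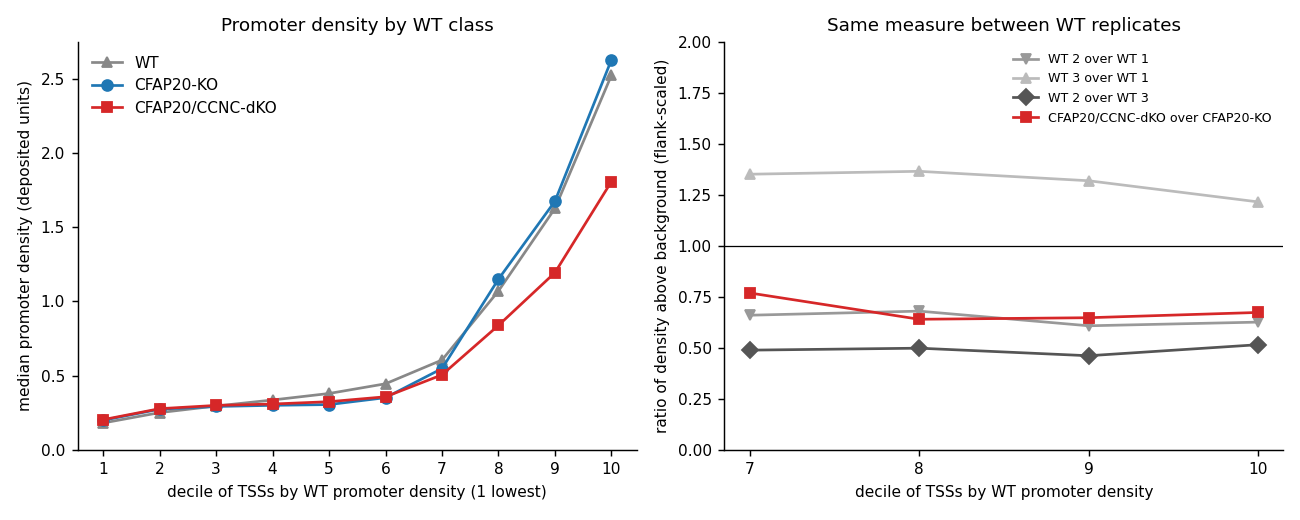
Left, median promoter density (deposited units) in each decile of TSSs ordered by WT promoter density, for WT (grey triangles), CFAP20-KO (blue circles) and CFAP20/CCNC-dKO (red squares); the knockouts overlap up to decile 6 and separate above it. Right, the ratio of flank-scaled promoter density above background in the 4 upper deciles for CFAP20/CCNC-dKO over CFAP20-KO (red) and for pairs of WT replicates (grey shades), at TSSs inside origin windows; the red line lies between WT replicate 2 over 3 and WT replicate 3 over 1.

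The difference between the knockouts followed WT occupancy. In decile 1 of WT density the median promoter density was 0.199 for CFAP20-KO and 0.203 for CFAP20/CCNC-dKO, and in decile 6 it was 0.351 and 0.357. From decile 7 upward the double knockout was lower: 0.547 against 0.505, then 1.15 against 0.838, 1.67 against 1.19, and in decile 10 2.63 against 1.81. The share of promoters lower in the double knockout rose from 56.7% in decile 7 to 85.2% in decile 10. Expressed as signal above background, CFAP20/CCNC-dKO held 0.649 of the CFAP20-KO signal in decile 8, 0.649 in decile 9 and 0.651 in decile 10 (interval 0.641 to 0.662). The fraction lost was thus alike across the 3 most occupied deciles, while the log2 ratio grew from -0.42 to -0.53 with the share of the density that lay above background. Over all bound promoters the fraction was 0.65 (0.642 to 0.658).

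A similar fraction was found on both sides of the start. In bound genes of at least 5000 bp the CFAP20/CCNC-dKO to CFAP20-KO ratio of density above background was 0.673 from 1000 to 500 bp upstream, 0.649 in the 200 bp before the TSS, 0.639 in the 200 bp after it, 0.657 from 200 to 500 bp and 0.653 from 1000 to 2000 bp. It was 0.775 from 2000 to 5000 bp and 0.784 from 4500 to 2000 bp upstream, where density above background was small. The mean profile peaked 90 bp downstream of the TSS for CFAP20-KO and 100 bp for CFAP20/CCNC-dKO. Its width where the signal reached 50% of its peak was 880 and 890 bp. Over all active TSSs the widths were 920 and 950 bp, with both peaks at 90 bp. The peak of the mean profile at bound TSSs was 2.35 for CFAP20-KO and 1.60 for CFAP20/CCNC-dKO, so the heights differed by more than the widths.

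**Figure D2:**
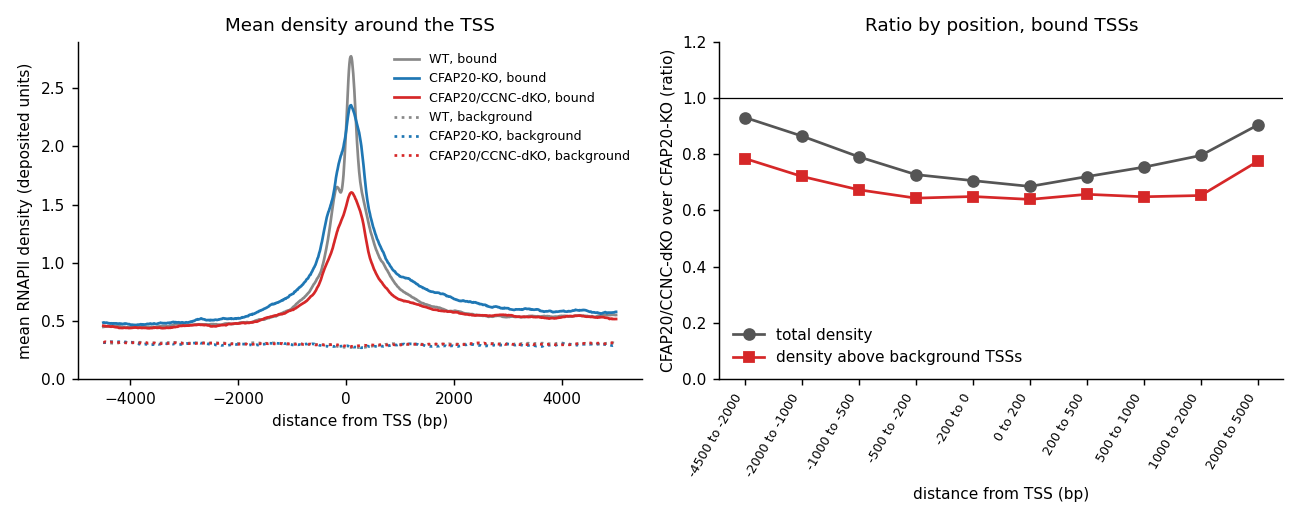
Left, mean RNAPII density (deposited units) against distance from the TSS at bound TSSs (solid) and background TSSs (dotted) in WT (grey), CFAP20-KO (blue) and CFAP20/CCNC-dKO (red); the dotted lines coincide and the red peak of 1.60 lies below the blue peak of 2.35. Right, the CFAP20/CCNC-dKO to CFAP20-KO ratio by distance at bound genes of at least 5000 bp, as total density (grey) and as density above background (red), which stays between 0.639 and 0.673 from 1000 bp upstream to 2000 bp downstream.

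Every class of bound promoter with at least 20 TSSs held between 0.6 and 0.743 of its RNAPII signal above background. Classes were formed from WT density ratios, the deposited BrU-seq value, gene length, gene type, CpG content, promoter motifs and a start on the opposite strand. Over 42 such classes with at least 20 TSSs, the fraction of CFAP20-KO signal held in CFAP20/CCNC-dKO ran from 0.630 to 0.698 with a median of 0.652, and the counting interval of all 42 lay below 1. Promoters were grouped into quintiles by the WT promoter to gene body ratio, a measure of promoter-proximal pausing. The fraction was 0.633 in the least paused quintile and 0.647 in the most paused. By BrU-seq value, a measure of nascent transcription, it was 0.632 in the lowest quintile, 0.671 (0.653 to 0.690) in the middle quintile and 0.639 in the highest. Long genes did not stand apart, with 0.630 (0.581 to 0.683) in 84 genes over 200000 bp and 0.661 (0.635 to 0.688) in 210 genes of 3000 to 5000 bp. Protein-coding genes held 0.65 and long noncoding RNA genes 0.644 (0.611 to 0.678). Promoters with a start on the opposite strand within 1 kb upstream held 0.639, and those without one 0.652.

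The few departures were small. CpG-poor promoters, 150 with an observed over expected CpG ratio below 0.3, held 0.698 (0.653 to 0.745), whereas 1681 promoters with a ratio over 0.8 held 0.653 (0.643 to 0.663). With TSSs in 5 groups by GC content, the median log2 flank ratio was 0.052 in the lowest group and -0.072 in the highest. Of the background TSSs 876 lay in the lowest group and 201 in the highest, and of the bound TSSs 66 and 1207. The part of GC content in the CpG difference was not tested. The 103 bound promoters with the cAMP response element letters TGACGTCA, carried by 1.49% of all 9787 promoter windows, held 0.697 (0.655 to 0.742). Those with the TATA box letters TATAAA, 24 bound promoters and 2.18% of all windows, held 0.660 (0.610 to 0.713). Motifs were searched on both strands except the TATA box and the TOP motif letters CTTTCC, which were searched on the gene's strand. Promoters with the ETS letters CCGGAAG, in 7.05% of all windows, held 0.645. By chromosome the fraction ran from 0.6 (0.557 to 0.645) on chromosome 14 to 0.743 (0.673 to 0.820) on chromosome X. Of the 42 classes and 23 chromosomes, 8 had a counting interval that left out the overall 0.65, 6 of them above and 2 below.

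**Figure D3:**
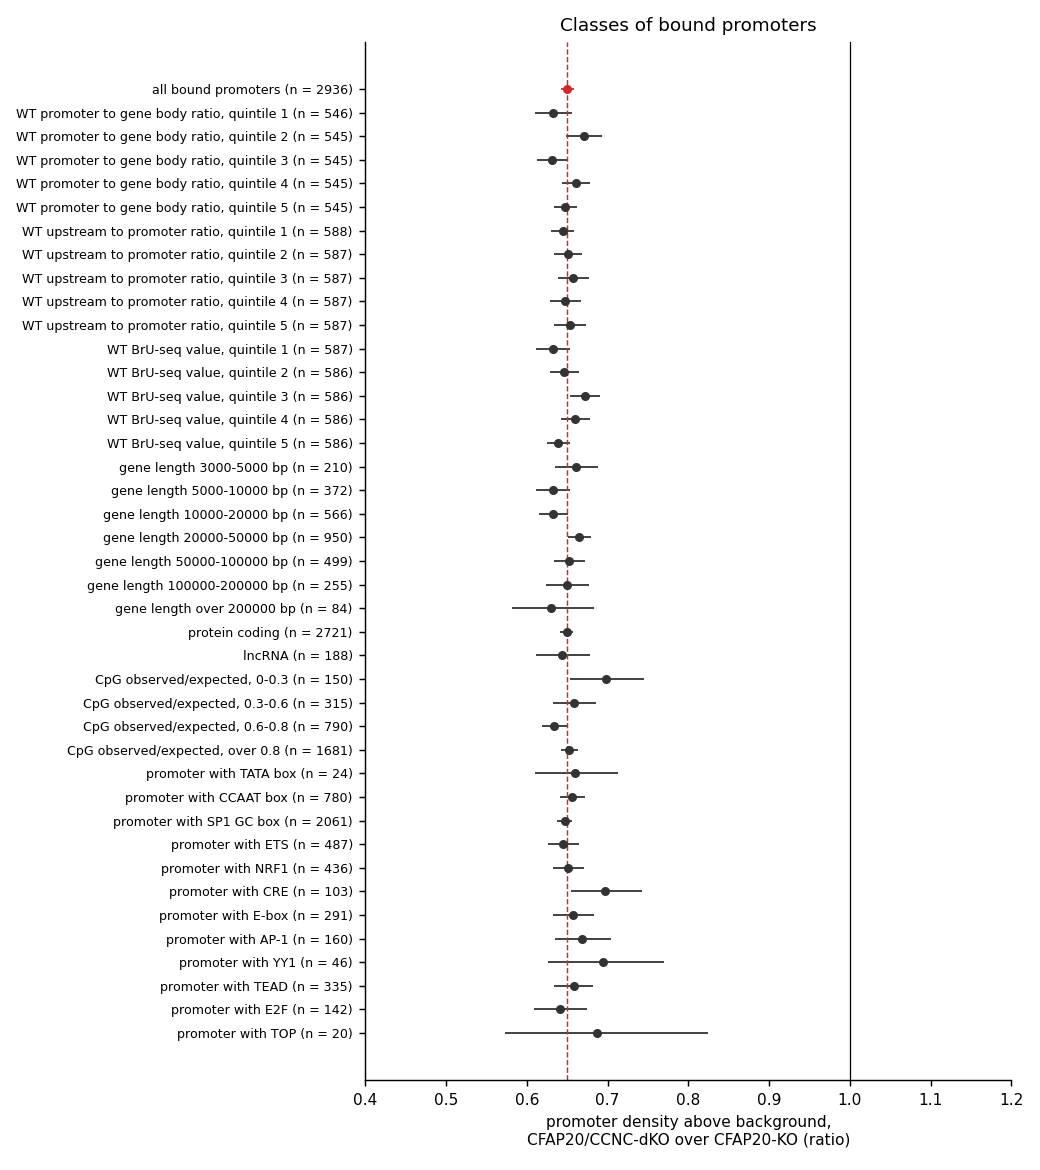
Promoter density above background in CFAP20/CCNC-dKO relative to CFAP20-KO (ratio, horizontal axis) for classes of bound promoters, with counting intervals of 95%; n is the number of TSSs, the red point and dashed line give all bound promoters (0.65) and the black line no difference. All points lie between 0.630 and 0.698.

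Single genes were counted with 1 TSS per gene against the median ratio, so that a gene is called when it departs from that median by at least 1.5-fold. Of 4890 active genes 899 (18.4%) were lower and 1113 (22.8%) higher. On the deposited scale, without this centring, 1820 (37.2%) were lower and 653 (13.4%) higher. Among 1838 genes with at least 40 fragments over both libraries, 330 (18%) were lower and 156 (8.49%) higher against the same median of all active promoters. The median log2 ratio of these 1838 genes was -0.50, against -0.37 over all active promoters, so the centring favours lower calls among them. The counting interval lay below the median ratio in 6.65% of active genes and above it in 5.91%. For gene bodies these shares were 9.02% and 7.05%, 11.9% of 4368 genes were at least 1.5-fold lower and 13% higher relative to the median, and 13.4% and 11.4% on the deposited scale. Between flank-scaled WT replicates, 24.6% to 35.2% of 1171 active promoters departed by 1.5-fold or more from the median, and between the knockouts 35.1% of the same promoters did. These spreads are not like for like in depth. WT replicate 1 held a median of 116 fragments per active promoter, against 14.3 for CFAP20-KO and 16.3 for CFAP20/CCNC-dKO.

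The 12 genes with the lowest promoter ratio among those with at least 40 fragments were CYP27C1, AGO4, CCDC9, SPATA7, PRR16, PAPSS1, DCUN1D5, C6orf203, MARCHF3, DET1, NFXL1 and FDXR. Their ratios ran from 0.165 to 0.254. They held 29.6 to 48.3 promoter fragments in CFAP20-KO and 9.38 to 16.3 in CFAP20/CCNC-dKO. They thus reached the limit of summed fragments mainly through CFAP20-KO, the library in which they were high. At AGO4, an Argonaute protein that binds small RNAs, promoter density was 2.40 for WT, 2.99 for CFAP20-KO and 0.555 for CFAP20/CCNC-dKO, a ratio of 0.185 (0.0859 to 0.369). PAPSS1, which makes the sulfate donor of the cell, had 1.74, 3.24 and 0.699 in the same order, and FDXR, the ferredoxin reductase of mitochondria, 1.67, 2.47 and 0.627. These genes were chosen for the ratio, so their values only describe the extremes. For the 2 members inside origin windows the WT replicates can be set beside them: flank-scaled promoter density of DCUN1D5 was 4.61, 2.35 and 5.87 in WT replicates 1 to 3, 5.93 for CFAP20-KO and 1.5 for CFAP20/CCNC-dKO, and that of NFXL1 3.46, 1.48 and 3.24 in WT, 6.09 and 1.5. The CFAP20-KO value of both genes lay above all 3 WT replicates, and the double knockout value lay below all of them at DCUN1D5 and within their range at NFXL1.

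The 12 genes with the highest ratio were HSPH1, EDN1, COLGALT2, SPIRE2, TMEM65, TCEB1, DLL4, RUNX1, ZDHHC7, MSL1, LSM10 and SRRM1, with ratios from 1.96 to 3.53. They too were chosen for the ratio, so their values and their positions against the WT replicates only describe the extremes. They held 7.89 to 18.2 promoter fragments in CFAP20-KO and 32.9 to 64.4 in CFAP20/CCNC-dKO. They thus reached the limit of summed fragments mainly through the library in which they were high. HSPH1, a large heat shock protein of the HSP110 family, had a promoter density of 1.92 for WT, 0.789 for CFAP20-KO and 2.78 for CFAP20/CCNC-dKO, a ratio of 3.53 (1.79 to 7.67). EDN1, the vasoconstrictor peptide endothelin-1, had 1.12, 0.941 and 3.23, a ratio of 3.43 (1.84 to 6.93), and its gene body had 0.378, 0.605 and 1.45, a ratio of 2.40 (1.63 to 3.62). The listed EDN1 start lay 2344 bp from the RefSeq start. The Notch ligand gene DLL4 had promoter densities of 0.964, 0.761 and 1.65, and RUNX1, a transcription factor of blood and epithelial development, 1.28, 0.859 and 1.84. Of the 4 genes inside origin windows, TMEM65, TCEB1, RUNX1 and MSL1, flank-scaled promoter density of CFAP20/CCNC-dKO lay above all 3 WT replicates at the first 3, and that of CFAP20-KO lay within the WT range at TMEM65 and TCEB1 and below it at RUNX1 and MSL1. TCEB1, which encodes elongin C, had 4.73, 2.42 and 4.44 in the WT replicates, 2.53 for CFAP20-KO and 5.30 for CFAP20/CCNC-dKO. MSL1, a scaffold of a histone acetyltransferase complex, had flank-scaled values of 5.89, 3.58 and 3.61 in the WT replicates, 2.47 for CFAP20-KO and 4.89 for CFAP20/CCNC-dKO.

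Gene bodies with the highest WT RNAPII density were lower in the double knockout more often than those of other genes. The 437 genes in the top decile of WT gene body density had a median gene body density of 0.916 for CFAP20-KO and 0.765 for CFAP20/CCNC-dKO, and 70.5% of them were lower in the double knockout, against 53.8% of all 4370. In this decile 19.5% of genes had gene body density at least 1.5-fold lower relative to the median, against 11.9% of all genes, and 5.03% had it higher, against 13%. The fraction of gene body signal above background was 0.714 (0.697 to 0.731) in the top decile and 0.806 in the decile below it. Median WT gene body density was 0.797 in the top decile and 0.283 in decile 1, beside a WT background mean of 0.305. The share of the density above background thus differed between deciles, and ratios of total density vary with it. Between WT replicates the gene bodies of bound genes differed by more than between the knockouts. At 788 bound genes inside origin windows, CFAP20/CCNC-dKO held 0.820 of the flank-scaled gene body signal of CFAP20-KO, while WT replicate 2 held 0.711 of that of replicate 1, WT replicate 3 held 1.45 times that of replicate 1, and WT replicate 2 held 0.490 of that of replicate 3. Of 1071 active gene bodies there, 24.4% departed by 1.5-fold or more from the median between the knockouts, and 11.3% to 29.7% between WT replicates.

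**Figure D4:**
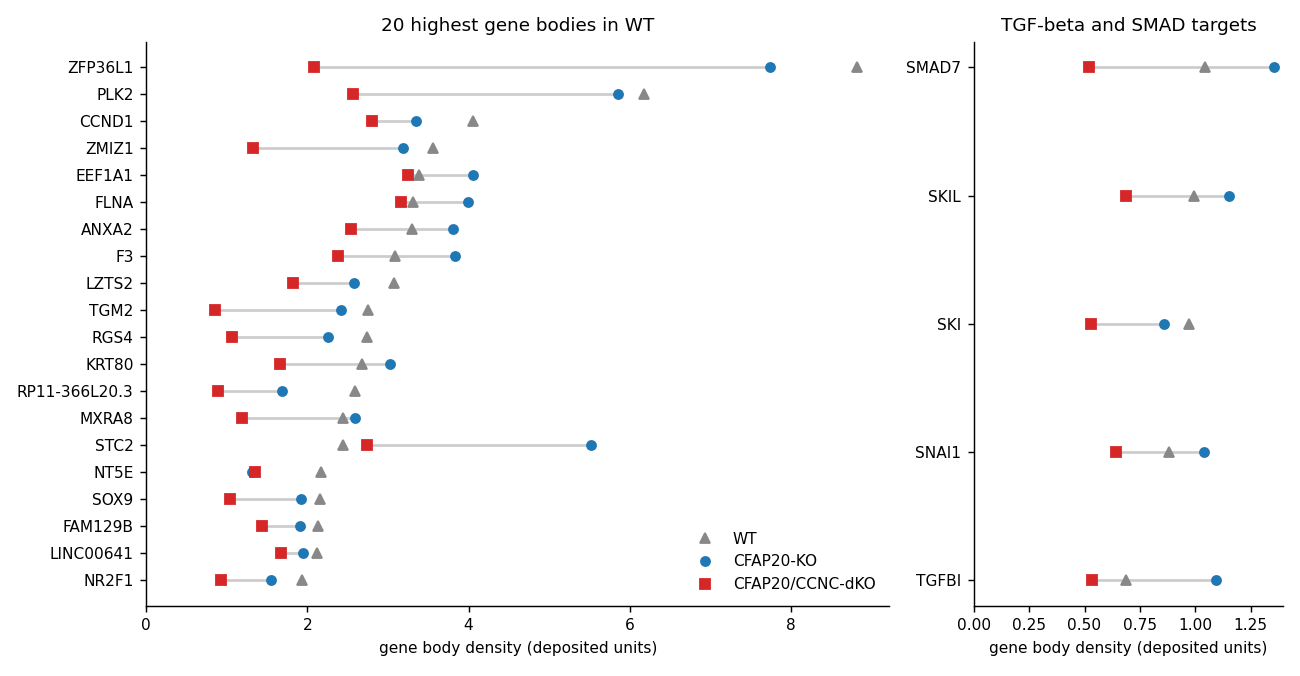
Gene body density (deposited units) of the 20 genes with the highest WT gene body density (left) and of the 5 TGF-beta and SMAD targets described (right), in WT (grey triangles), CFAP20-KO (blue circles) and CFAP20/CCNC-dKO (red squares). Red lies left of blue in 19 of the 20 genes, NT5E being the exception, and in all 5 targets.

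The 20 genes with the highest WT gene body density were a set chosen after the values were seen but by WT alone. Of these, 19 were lower in CFAP20/CCNC-dKO than in CFAP20-KO, against 53.8% of all 4370 and 70.5% of the top decile. A counting interval below 1 was found in 17. The share of all gene bodies with an interval below 1 was not counted, and intervals are narrower at genes with more fragments. Their median ratio was 0.574, and the exception was NT5E (1.32 and 1.35). ZFP36L1, which binds AU-rich messages and speeds their decay, had gene body densities of 8.82 for WT, 7.74 for CFAP20-KO and 2.08 for CFAP20/CCNC-dKO, a ratio of 0.269 (0.224 to 0.321). Its promoter had 4.74, 5.57 and 3.53, a ratio of 0.634 (0.450 to 0.892). PLK2, a stress-inducible polo-like kinase, had 6.17, 5.85 and 2.56 in its body, and TGM2, a transglutaminase that crosslinks proteins, 2.76, 2.42 and 0.847. At ZMIZ1, a coactivator of SMAD and androgen receptor transcription, the body had 3.56, 3.18 and 1.32, a ratio of 0.416 (0.326 to 0.530). SOX9, a transcription factor of cartilage and epithelial progenitors, had 2.16, 1.92 and 1.05 in the body and 4.14, 4.01 and 1.23 at the promoter. STC2, a secreted glycoprotein induced by stress, had 2.45 for WT, 5.52 for CFAP20-KO and 2.74 for CFAP20/CCNC-dKO. The listed ZFP36L1 start lay 1345 bp from the nearest GENCODE start, and the gene is 6132 bp long.

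Of these 20 genes 7 lay in origin windows, where WT replicates could be read. The flank-scaled gene body density of CFAP20/CCNC-dKO lay below all 3 WT replicates at 4 of the 7 and that of CFAP20-KO at 1. ANXA2, a calcium-dependent membrane-binding protein, had 8.34, 6.39 and 12.2 for WT, 9.20 for CFAP20-KO and 6.21 for CFAP20/CCNC-dKO. EEF1A1, the elongation factor of translation, had 8.63, 5.66 and 11.4 for WT, 9.80 for CFAP20-KO and 7.92 for CFAP20/CCNC-dKO, all within the WT range.

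With the window and limits used here, targets of TGF-beta and its SMAD transcription factors were lower in their bodies. Of 7 members 6 were active. Of these, 5 belonged to genes of at least 5000 bp, and all 5 had gene body density at least 1.5-fold lower in CFAP20/CCNC-dKO relative to the median, where 11.9% of all 4368 genes did. The lists were planned for promoter ratios, so the count of 5 was not a planned comparison. This count fell under some other settings, given below. All 5 genes lay in the top decile of WT gene body density, in which 19.5% of genes were called lower. Their median log2 gene body ratio was -0.72, against -0.05 over all genes and -0.24 in that decile. The inhibitory SMAD gene SMAD7 had gene body densities of 1.05 for WT, 1.36 for CFAP20-KO and 0.521 for CFAP20/CCNC-dKO, a ratio of 0.384 (0.259 to 0.564). TGFBI, a matrix protein named for its induction by TGF-beta, had 0.685, 1.09 and 0.532, SKIL, a SMAD corepressor, 0.992, 1.15 and 0.686, and SNAI1, the zinc finger repressor of E-cadherin, 0.882, 1.04 and 0.642. SKI, the corepressor related to SKIL, had 0.972, 0.860 and 0.529.

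At the promoters of the same list the counting interval of the fraction held included that of all active promoters (0.660). SNAI1 had promoter densities of 4.71, 4.61 and 2.23, SMAD7 2.02, 2.31 and 1.43, and TGFBI 1.18, 1.83 and 0.692, whereas SKIL had 0.844, 1.17 and 1.68. Of the 6 active promoters 2 were at least 1.5-fold lower and 1 higher relative to the median, against 18.4% and 22.8% of all genes, and the list held 0.562 (0.424 to 0.747) of the CFAP20-KO signal. For SMAD7 the flank-scaled gene body density was 2.59, 2.67 and 3.47 in the WT replicates, 3.28 for CFAP20-KO and 1.27 for CFAP20/CCNC-dKO, which lay below all 3 WT replicates. The count of 5 came to 2 with a gene body window from 1000 to 5000 bp, to 2 with a larger pseudocount (50% of the median promoter density) and to 1 at a 2-fold limit. TGFBI is also the single marker of RPE1 measured here, and retinal pigment epithelium markers ran from 0.108 to 1.81 for CFAP20-KO and from 0.456 to 1.01 for CFAP20/CCNC-dKO at 4 promoters, with RPE65, a visual cycle enzyme of that tissue, at 0.108 and 0.484. Promoters of 4 blood, 2 neuron and 3 hepatocyte markers were at or below 0.562 in both libraries, with 1 blood marker at 0 in CFAP20-KO.

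The gene with the lowest gene body ratio of all with at least 40 gene body fragments was MN1, a transcriptional coregulator of cranial development, with 0.727 for WT, 0.958 for CFAP20-KO and 0.217 for CFAP20/CCNC-dKO, a ratio of 0.226 (0.126 to 0.390). Its flank-scaled gene body density was 1.78, 1.69 and 1.91 in the WT replicates, 2.32 for CFAP20-KO and 0.529 for CFAP20/CCNC-dKO. ZFP36L1, LINC00950, IL7, C1orf159 and CTD-3035D6.2 completed the 6 lowest. Apart from ZFP36L1, these lowest genes held 31.8 to 53.4 gene body fragments in CFAP20-KO and 13.4 to 20.1 in CFAP20/CCNC-dKO. Those genes thus reached the limit mainly through CFAP20-KO, the library in which they were high. The 6 highest, GPR18, QRSL1, FRG1, MS4A2, C1orf168 and ADGRF2, had between 0.0722 and 0.123 in CFAP20-KO, below the background mean of 0.293, and between 0.440 and 0.504 in CFAP20/CCNC-dKO. They held 4.03 to 6.88 gene body fragments in CFAP20-KO and 37.6 to 43.1 in CFAP20/CCNC-dKO. They thus reached the limit of 40 summed fragments through the library in which they were high. Genes at both ends were chosen for the ratio, so their values only describe the extremes.

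Gene lists named for a pathway or a function held similar fractions at their promoters. Of 34 lists, 21 had at least 5 active members, and all 21 had a median log2 promoter ratio below 0. The fraction of CFAP20-KO signal held ran from 0.562 to 0.824 with a median of 0.654. List members are active promoters, which together held 0.660, and 68.7% of all active promoters were lower in the double knockout. This share rose with WT density, being 72.6% in decile 8, 79.9% in decile 9 and 85.2% in decile 10, and the lists differed in WT density. Counting intervals left out 0.660 in 4 lists, 1 below and 3 above. Zinc finger (ZNF) genes, many of them KRAB repressors, were the list whose interval lay below, with 0.586 (0.550 to 0.624). Of 177, 140 (79.1%) were lower in the double knockout. On chromosome 19 lay 88 of the 177, and 69 of these 88 were lower. All bound promoters of that chromosome held 0.618 (0.588 to 0.651), and its part in the value of the list was not tested. Relative to the median, 45 were at least 1.5-fold lower (25.4%, against 18.4% of all genes). By the same rule 23 were at least 1.5-fold higher (13.0%, against 22.8% of all genes). ZNF254 had promoter densities of 3.62, 4.05 and 1.91 in WT, CFAP20-KO and CFAP20/CCNC-dKO, ZNF527 2.23, 3.98 and 2.82, ZNF326 2.88, 3.43 and 2.40, and ZNF621 went the other way with 3.25, 2.22 and 3.07.

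Immediate early genes, induced within minutes by growth factors, held 0.608 (0.546 to 0.678), and 12 of 15 (80%) were lower, against 68.7% of all active promoters. Their median WT promoter density was 2.63. In decile 10 of WT density, with a median of 2.52, 85.2% of promoters were lower. CYR61, a matrix-associated growth regulator with the highest promoter density of all genes in WT, had 13.6 for WT, 19.4 for CFAP20-KO and 12.3 for CFAP20/CCNC-dKO, a ratio of 0.636 (0.531 to 0.761). KLF2, a zinc finger factor, had 6.39, 6.56 and 4.31, and IER5, an activator of heat shock factor, 5.39, 5.60 and 3.65. The share called at least 1.5-fold lower, 3 of 15, was near the 18.4% of all genes. These 3, named after their values were seen, were EGR1 (1.70, 2.13 and 0.577), FOS (2.63, 3.61 and 1.77) and FOSB (1.13, 1.35 and 0.586). The genes of the ERK feedback list, which restrain the same growth factor signal, were mixed. SPRY2 had 4.59, 3.40 and 1.51, whereas DUSP5, a phosphatase of ERK, had 6.05, 5.05 and 5.81 at the promoter and 1.67, 1.15 and 2.16 in the body, a gene body ratio of 1.87 (1.40 to 2.53). The flank-scaled DUSP5 gene body was 4.29, 3.27 and 5.46 in the WT replicates, 2.79 for CFAP20-KO and 5.26 for CFAP20/CCNC-dKO, with CFAP20-KO below all 3.

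Splicing factor genes were lower at 14 of 14 active promoters, against 68.7% of all active promoters, and held 0.615 (0.544 to 0.695), an interval that includes 0.660. Their median WT promoter density, 2.37, lay between those of deciles 9 and 10 (1.63 and 2.52). In these deciles 79.9% and 85.2% of promoters were lower. Of the 14, 2 were at least 1.5-fold lower relative to the median, against 18.4% of all genes. SRSF3 had 7.63, 9.67 and 4.44, a ratio of 0.459 (0.346 to 0.607), and SRSF6 7.15, 7.17 and 4.21, while their bodies had ratios of 0.873 (0.654 to 1.17) and 1.02 (0.764 to 1.37). Cytosolic ribosomal protein genes held 0.649 (0.566 to 0.745), with 11 of 13 (84.6%) lower.

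**Figure D5:**
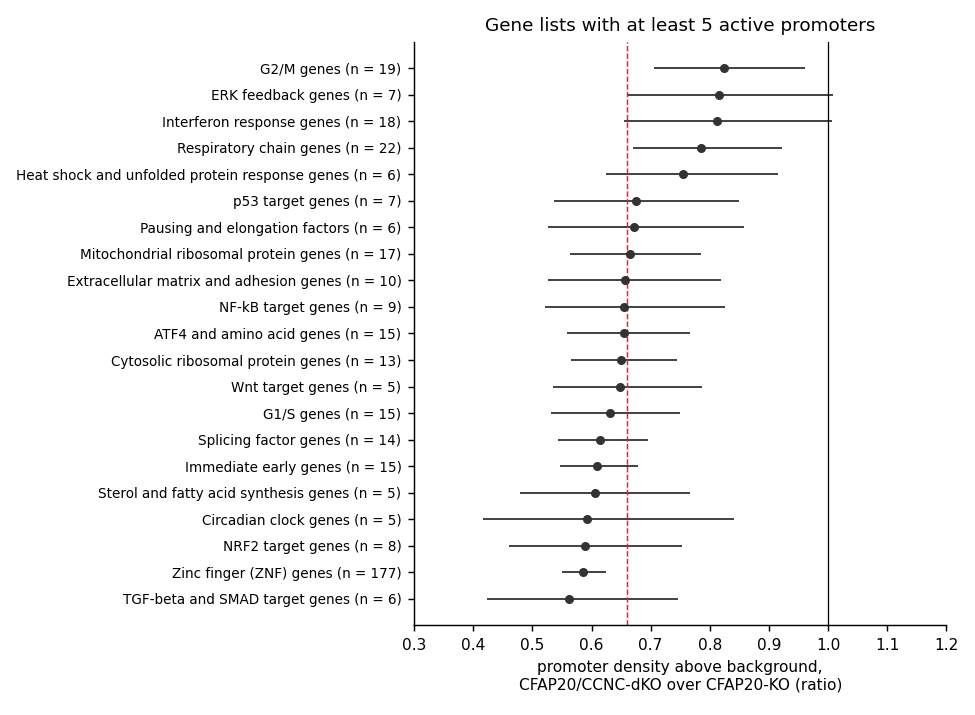
Promoter density above background in CFAP20/CCNC-dKO relative to CFAP20-KO (ratio, horizontal axis) for the 21 gene lists with at least 5 active promoters, with counting intervals of 95%; n is the number of active members, the dashed red line marks all active promoters (0.660) and the black line no difference. TGF-beta and SMAD targets are lowest at 0.562, and G2/M genes highest at 0.824.

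The 3 lists whose intervals lay above that of all active promoters were G2/M genes, respiratory chain genes and the ERK feedback genes, which held 0.816 (0.660 to 1.01) with the lower bound at the common value itself. G2/M genes, which drive mitosis, held 0.824 (0.705 to 0.962), and 12 of 19 (63.2%) were lower, near the 68.7% of all active promoters. Their median WT promoter density, 1.47, lay between those of deciles 8 and 9, where 72.6% and 79.9% of promoters were lower. ANLN, a scaffold of the cleavage furrow, had promoter densities of 2.08, 2.85 and 3.27 and gene body densities of 0.726, 0.893 and 1.30, a gene body ratio of 1.45 (1.03 to 2.07). CENPA, the centromeric histone variant, had promoter densities of 1.27, 1.80 and 2.21, and KIF23, a mitotic kinesin, 1.99, 2.81 and 2.57. In flank-scaled promoter density ANLN had 6.03, 4.19 and 5.95 in the WT replicates, 7.01 for CFAP20-KO and 7.72 for CFAP20/CCNC-dKO, above all 3 in both knockouts. Respiratory chain genes held 0.786 (0.670 to 0.922), with 12 of 22 (54.5%) lower. CYCS, cytochrome c, had 2.82, 6.02 and 2.92, and COX5A, a subunit of complex IV, 1.48, 2.21 and 1.81. G1/S genes, which precede the G2/M genes in the cell cycle, held 0.632 (0.532 to 0.750). The cyclin gene CCND1 had 5.22, 7.24 and 3.87 at its promoter, a ratio of 0.534 (0.390 to 0.730).

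The counting intervals of the stress and inflammatory lists included the common 0.660. NF-kB targets held 0.656 (0.521 to 0.825), with 5 of 9 (55.6%) lower, and NFKBIA, the inhibitor that restrains NF-kB, had promoter densities of 4.05 for WT, 4.82 for CFAP20-KO and 1.92 for CFAP20/CCNC-dKO, a ratio of 0.399 (0.259 to 0.605). In flank-scaled density NFKBIA had 9.08, 8.92 and 10.6 in the WT replicates, 10.99 for CFAP20-KO and 4.55 for CFAP20/CCNC-dKO, so the double knockout lay below all 3. Interferon response genes held 0.812 (0.654 to 1.01), and B2M, the light chain of MHC class I, had 3.13, 3.16 and 2.88. NRF2 targets of the antioxidant response held 0.589 (0.461 to 0.753). Among them TKT, a pentose phosphate enzyme, had 3.90, 4.08 and 1.78, whereas TXN, thioredoxin, had 3.20, 2.85 and 2.73. Heat shock and unfolded protein response genes held 0.755 (0.624 to 0.915), and HSP90AA1, a cytosolic chaperone, had 6.65, 6.52 and 3.74, while HSPH1 of the same list was higher in the double knockout. The 2 replication-dependent histone genes measured both had a higher value in CFAP20/CCNC-dKO, with intervals that included 1. HIST1H4H had 4.24, 4.52 and 5.36, a ratio of 1.18 (0.854 to 1.66), and HIST1H3E 1.42, 1.00 and 1.90, a ratio of 1.89 (0.988 to 3.87). Among cyclins and CDKs of transcription, CCNH, the cyclin partner of CDK7 in TFIIH, had 1.71, 2.64 and 0.874, a ratio of 0.331 (0.175 to 0.605), while CDK7 itself had 1.52, 1.23 and 1.23.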

How the data were processed

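RPB1 ChIP-seq density around TSSs was analysed in 1 CFAP20-KO, 1 CFAP20/CCNC-dKO and 1 WT library. The deposited TSS values are spike-in-normalized coverage (signal) in 10 bp bins to 5 kb on both sides of each TSS, per the file headers and the labels. The submitters' processing notes name BWA 0.7.17, SAMtools 1.11 and HOMER 4.8.2. In each library the values were whole multiples of 1 step (within 0.02 steps), and coverage blocks standing alone spanned 298 bp in CFAP20-KO, 319 bp in CFAP20/CCNC-dKO and 145 bp in WT, from which equivalent fragments and 95% intervals (exact binomial for single genes, log-normal for density above background) were computed. PCR copies are not independent, so the intervals cover counting error only. WT replicates were read from deposited signal in 200 bp bins around replication origins, whose normalization is not given in the sources used here. The deposited BrU-seq gene body score, whose scale is not given in the sources used here, and the deposited coordinates (hg38) set classes, and 1 other column of per-sample values was not used. GENCODE 44 starts lay within 1 kb of 9429 of the 9787 TSSs.

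Before log2 ratios, 0.0424 was added to each density (a pseudocount equal to 10% of the median over promoters). Genes were counted past 1.5-fold relative to the median ratio, with no test. Named genes were the 12 lowest and 12 highest promoter ratios and the 6 lowest and 6 highest gene body ratios among active genes with at least 40 fragments, and the 4 members of each described list with the most fragments. Other genes named were chosen after their values were seen. Some genes are not reported here and were left out of the lists or rankings, but not of counts over all genes. The members and lists were chosen with earlier results of these data known. Alternatives were the windows, pseudocount, filter, background, centring and fold. Calculations used Python 3.11.15, numpy 2.4.6, scipy 1.17.1 and pandas 2.3.3, and the intervals were tested on simulated data.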

Additional observations from a re-analysis of the deposited data

How the results depend on the processing

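No paired analysis was possible because each knockout genotype has 1 library and no test was run, so that the shared replicate number 1 pairs nothing. For the same reason no library could be left out. The median log2 promoter ratio was -0.34 with a promoter window from 500 bp upstream to 1000 bp downstream, -0.31 with a pseudocount of 50% of the median and -0.39 with 1%, -0.20 over all TSSs, -0.40 over TSSs above the median of the mean of the 3 libraries, and -0.49 with each TSS's own flank density subtracted. The median log2 gene body ratio was -0.0918 with a window from 1000 to 5000 bp, -0.0333 with the 50% pseudocount and -0.00762 over all TSSs. The promoter to gene body ratio, -0.30 on the log2 scale, was -0.29 with the wider promoter window, -0.25 with the wider gene body window, -0.27 with the 50% pseudocount, -0.18 over all TSSs and -0.33 by the mean of the 3 libraries. The count of lower promoters was 2372 over all TSSs, 1511 with own flanks subtracted, 1820 without centring and 359 at 2-fold, and that of higher promoters 2722, 653 without centring and 615 at 2-fold. With the median flank as background, an alternative chosen after seeing the data, bound promoters held 0.636. Of 225 values of promoter classes 218 kept their sign, of 279 of gene lists 268 and of 810 of named genes 781. By more than their counting error, 57 of the class values moved, 10 of the list values and 18 of the named gene values. Among 25 classes, 20 moved so with own flanks subtracted and 17 with the 50% pseudocount. With the wider promoter window 12 did, and with one from 50 bp upstream to 300 bp downstream 8. A called value reversed in 1 case: the histone list had a median log2 ratio of -0.0153 with the wider promoter window, and the cause was not tested. With a median of 14.3 and 16.3 fragments per active promoter, differences at single genes of low density were not detectable.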
